A study of Mus musculus with 23 samples.

Results

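The phagocyte NADPH oxidase is an enzyme complex of innate immune cells that passes electrons from cytosolic NADPH across a membrane to oxygen, making superoxide. Its membrane part, flavocytochrome b558, is a heterodimer of the catalytic chain NOX2, encoded by *Cybb*, and the chain p22phox, encoded by *Cyba*. At rest cytosolic subunits, among them p47phox (*Ncf1*) and p40phox (*Ncf4*), stay apart from the membrane part, and on activation they join it together with a Rac GTPase, of which Rac2 (*Rac2*) is the form typical of blood cells. The voltage-gated proton channel encoded by *Hvcn1* lets protons follow the electrons and so offsets the charge that the oxidase moves. In the brain, microglia are the main cells that carry this oxidase. The 6 genes described here, *Cybb*, *Cyba*, *Ncf1*, *Ncf4*, *Rac2* and *Hvcn1*, were chosen by symbol. All 6 were among the 18876 genes of the count table and among the 18759 genes that passed a filter of at least 5 counts in at least 3 samples.

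RNA was sequenced from CD11b+ cells, taken with magnetic beads from the hippocampi of female mice on a mixed 129S;C57BL/6J background. Every mouse was Slc11a2 fl/fl and Cx3cr1 Cre-ERT2+/-, so both *Slc11a2* alleles, which encode the iron transporter DMT1, could be cut by a tamoxifen-inducible Cre driven from *Cx3cr1*, a gene of microglia and related myeloid cells. Mice were either wild type (WT) or hemizygous for APP/PS1, a pair of transgenes with familial Alzheimer's disease mutations that leads to amyloid plaques. Mice of the *Slc11a2*-KD groups were gavaged with 4 mg of tamoxifen on 5 days when they were 5 to 6 months old, whereas Control mice received 200 µL of corn oil, and all were killed at 15 to 18 months. Tamoxifen and the knockdown therefore went together and cannot be told apart. Of the Controls, 6 WT and 6 *APP/PS1* samples entered the comparisons, and of the *Slc11a2*-KD mice 5 of each genotype, named below by their library numbers. A further Control *APP/PS1* sample, 0010, was left out of the comparisons, as the study left out 1 sample of that group.

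Total counts ranged from 31128643 to 54872491 over the 23 samples. The 6 genes had at least 665 counts in each of the 22 samples compared, so that counting error was small beside the spread between samples. Levels are given as CPM, the usual measure of a gene's count relative to the total count of its library, scaled between samples by edgeR's trimmed mean of M-values. All Control samples were among libraries 5 to 17, whereas the *Slc11a2*-KD samples were libraries 1 to 4 and 18 to 23. Of the markers of microglia, 7 of 8 were in the table, each with counts in every sample. They summed to between 32454 and 49562 CPM. The total of *Slc11a2* itself did not fall with the knockdown label: it was in WT mice 34.2 ± 4.75 CPM (SD, n = 5) with the knockdown label against 35.1 ± 5.13 (SD, n = 6) without, and in *APP/PS1* mice 56.5 ± 13.5 CPM (SD, n = 5) with it against 43.2 ± 3.93 (SD, n = 6) without. By sample, the total was 37.5, 31.6, 27.1, 36.9 and 38.1 CPM in *Slc11a2*-KD WT 0001, 0002, 0003, 0019 and 0022, and 37.8, 52.1, 59.2, 75.1 and 58.2 CPM in *Slc11a2*-KD *APP/PS1* 0004, 0018, 0020, 0021 and 0023. Control WT samples ranged from 29.9 through a median of 33.5 to 43.7 CPM and Control *APP/PS1* samples from 40.0 through 41.5 to 48.2 CPM. Since the Cre removes only some exons and reads were counted over the whole gene, this total does not check the deletion. The study assessed the knockdown over the floxed exons and by RT-qPCR, which was not analysed here, and every direction given for *Slc11a2*-KD follows the labels.

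On GRCm39, *Cybb* lies on the minus strand at chrX:9301491-9354010, *Cyba* on the minus strand at chr8:123150422-123159706 and *Ncf1* on the minus strand at chr5:134248907-134258479. *Hvcn1* lies on the plus strand at chr5:122344867-122382736, *Ncf4* on the plus strand at chr15:78128982-78146784 and *Rac2* on the minus strand at chr15:78443367-78457429. *Hvcn1* shares 43.9% of its exonic bases with *Tctn1* on the opposite strand, *Cyba* 18.4% with *Il17c*, *Ncf1* 15.7% with *Gtf2ird2*, *Cybb* 5.23% with *Xk* and *Rac2* 2.42% with the long non-coding RNA *Gm63166*, whereas *Ncf4* shares none. Whether the counting used the strand is not stated in the sources used here, so reads from these shared stretches may belong to either gene.

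Promoter windows were held by the sequence table for 3 of the 6 genes, the membrane chain genes *Cybb* and *Cyba* and the cytosolic subunit gene *Ncf1*, whose levels did not move together below. Each window runs, in the direction of transcription, from 250 bases before to 50 bases after the RefSeq start on GRCm38.p6, all on the minus strand: chrX:9469275-9469574 for *Cybb*, chr8:122432891-122433190 for *Cyba* and chr5:134229576-134229875 for *Ncf1*. Capitals mark matches to 4 motifs searched on both strands: the PU.1 core GAGGAA, a pair of interferon regulatory factor half-sites written GAAANNGAAA, the Sp1 core GGGCGG and the CCAAT box CCAAT. A match on the strand opposite to the one printed appears as its reverse complement.
Cybb: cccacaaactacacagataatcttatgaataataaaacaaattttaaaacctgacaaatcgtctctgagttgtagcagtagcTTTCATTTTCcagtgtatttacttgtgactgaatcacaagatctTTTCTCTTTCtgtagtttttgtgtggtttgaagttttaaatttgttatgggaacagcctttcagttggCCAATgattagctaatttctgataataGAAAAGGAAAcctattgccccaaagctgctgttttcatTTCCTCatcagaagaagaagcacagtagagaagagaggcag
Cyba: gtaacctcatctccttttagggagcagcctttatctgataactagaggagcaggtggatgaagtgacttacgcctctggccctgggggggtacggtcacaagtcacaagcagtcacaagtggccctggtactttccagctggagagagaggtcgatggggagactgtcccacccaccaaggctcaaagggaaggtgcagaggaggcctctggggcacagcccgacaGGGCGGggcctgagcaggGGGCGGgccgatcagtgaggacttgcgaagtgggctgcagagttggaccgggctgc
Ncf1: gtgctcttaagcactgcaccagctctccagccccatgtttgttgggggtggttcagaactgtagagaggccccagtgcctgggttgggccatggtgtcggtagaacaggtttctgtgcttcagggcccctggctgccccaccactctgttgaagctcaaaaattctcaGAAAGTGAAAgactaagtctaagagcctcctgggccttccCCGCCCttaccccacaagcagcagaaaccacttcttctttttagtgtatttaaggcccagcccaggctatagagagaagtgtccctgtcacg
The *Cybb* window held CCAAT starting 56 bases before the start, GAAANNGAAA starting 29 bases before it and, on the opposite strand, at 168 and 124 bases before it, and the PU.1 core on the opposite strand just after the start. The *Cyba* window held GGGCGG starting 24 and 6 bases before the start and none of the other motifs. The *Ncf1* window held GAAANNGAAA starting 82 bases before the start and GGGCGG on the opposite strand at 42 bases before it. Of all 32851 windows, 28.3% held GAGGAA, 3.44% GAAANNGAAA, 35.7% GGGCGG and 37.4% CCAAT. These matches describe letters only and say nothing of what binds there.

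Levels of different genes were compared per kilobase (kb) of exon. In Control WT, *Cyba* had the highest level, at 289 ± 50.8 CPM per kb (SD, n = 6), followed by *Ncf1* at 118 ± 8.31 CPM per kb. *Rac2* at 41.8 ± 4.49, *Hvcn1* at 32.8 ± 4.26 and *Ncf4* at 32.2 ± 8.33 CPM per kb came next, with *Hvcn1* and *Ncf4* within their spread of each other, and *Cybb* was lowest at 6.83 ± 2.66 CPM per kb. The catalytic chain of the membrane heterodimer thus had the lowest transcript level of the 6 and its partner chain the highest. *Cyba*, *Ncf1* and *Cybb* kept the first, second and last places in all 4 groups. The middle places changed, with *Hvcn1* at 49.1 ± 7.55 CPM per kb above *Rac2* at 37.6 ± 4.52 in Control *APP/PS1*.

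**Figure D1:**
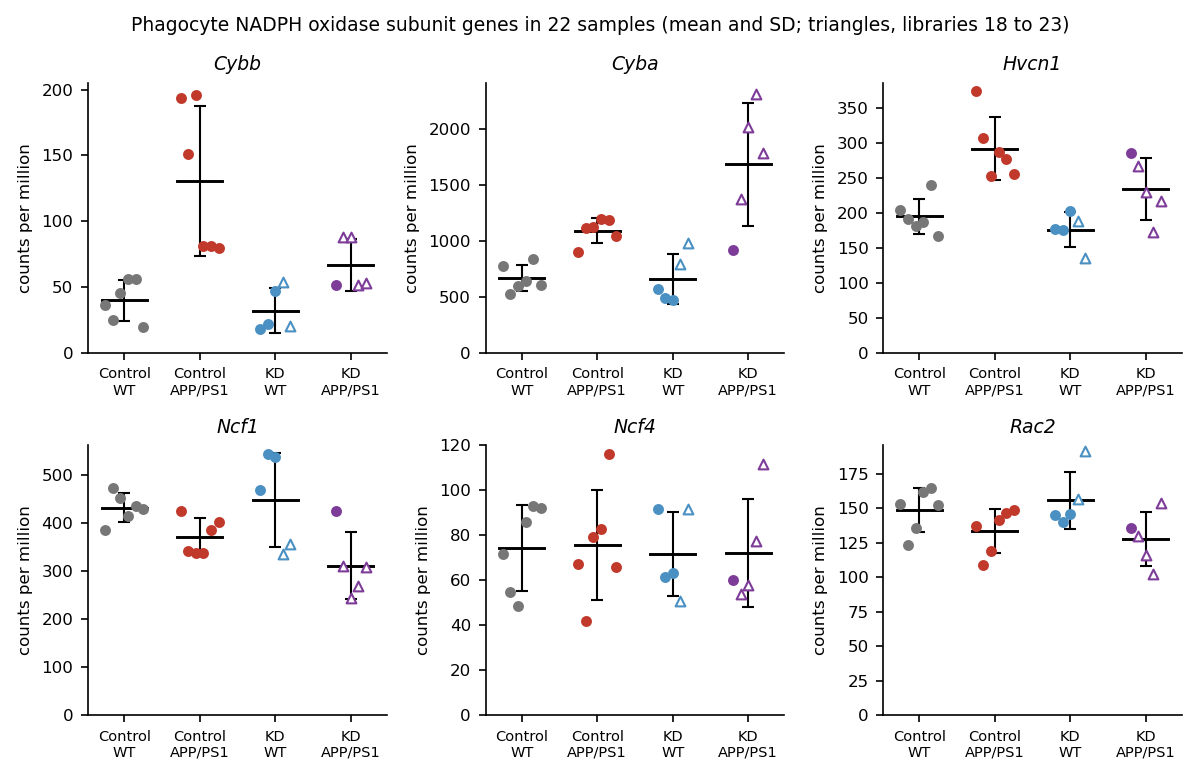
CPM of the 6 oxidase genes (vertical axes, starting at 0) in each of the 22 samples by group (KD, *Slc11a2*-KD); points are samples, triangles are libraries 18 to 23, and bars give the mean and SD. *Cybb*, *Cyba* and *Hvcn1* stand higher in both *APP/PS1* groups, and the *Cyba* and *Ncf1* points of libraries 18 to 23 stand apart from those of libraries 1 to 4.

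The first comparison asks how the oxidase genes differ with the *APP/PS1* genotype among Control mice. *Cybb*, *Cyba* and *Hvcn1* rose, that is, both chains of the membrane heterodimer and the proton channel, while *Ncf1*, *Ncf4* and *Rac2*, which encode cytosolic subunits, did not pass the test. By edgeR's quasi-likelihood test with Benjamini-Hochberg adjustment over all genes, 3 of the 6 were higher and 0 lower at an adjusted p under 0.05, where 5.99% of all genes tested were higher and 4.48% lower. Their median log2 fold change was 0.30, against -0.02 over all genes. In such bulk samples, fewer cells of a type and less RNA per cell cannot be told apart.

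*Cybb* was at 19.6 CPM in the lowest Control WT sample, at a median of 41.1 and at 56.1 CPM in the highest. In Control *APP/PS1* it was at 194, 151 and 196 CPM in 0005, 0007 and 0011 and at 81.5, 80.8 and 79.9 CPM in 0013, 0016 and 0017. The groups did not overlap, and the 6 Control *APP/PS1* samples fell into 3 with high and 3 with intermediate levels. The mean was 39.7 ± 15.5 CPM (SD, n = 6) in Control WT against 130 ± 56.8 (SD, n = 6) with *APP/PS1*, and thus a log2 fold change of 1.71 (SE 0.33, adjusted p = 0.000883). It was the largest change of the 6 genes in this comparison, and *Cybb* also had the widest spread within that group, with a coefficient of variation of 43.5%.

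*Cyba* ranged from 529 through a median of 626 to 839 CPM in Control WT and from 900 through 1117 to 1193 CPM in Control *APP/PS1*. All Control *APP/PS1* samples lay above all Control WT samples. Its log2 fold change was 0.72 (SE 0.19, adjusted p = 0.0174), smaller than that of its partner chain. Without Control WT 0012 and 0015, it was 0.67 with an adjusted p of 0.0853.

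*Hvcn1* ranged from 166 through 189 to 240 CPM in Control WT and from 252 through 282 to 373 CPM in Control *APP/PS1*, again with no overlap. It rose by 0.58 on the log2 scale (SE 0.13, adjusted p = 0.00385). The organizer subunit gene *Ncf1* had a mean of 432 ± 30.4 CPM (SD, n = 6) in the WT and 372 ± 38.5 (SD, n = 6) in the *APP/PS1* group, with a log2 fold change of -0.22 (adjusted p = 0.345). *Ncf4* was at 74.3 ± 19.2 and 75.6 ± 24.6 CPM (SD, n = 6 each), and *Rac2* at 148 ± 16 and 134 ± 16.1 CPM (SD, n = 6 each), with adjusted p-values of 0.970 and 0.462. The 2 groups overlapped for each of these 3 genes.

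**Figure D2:**
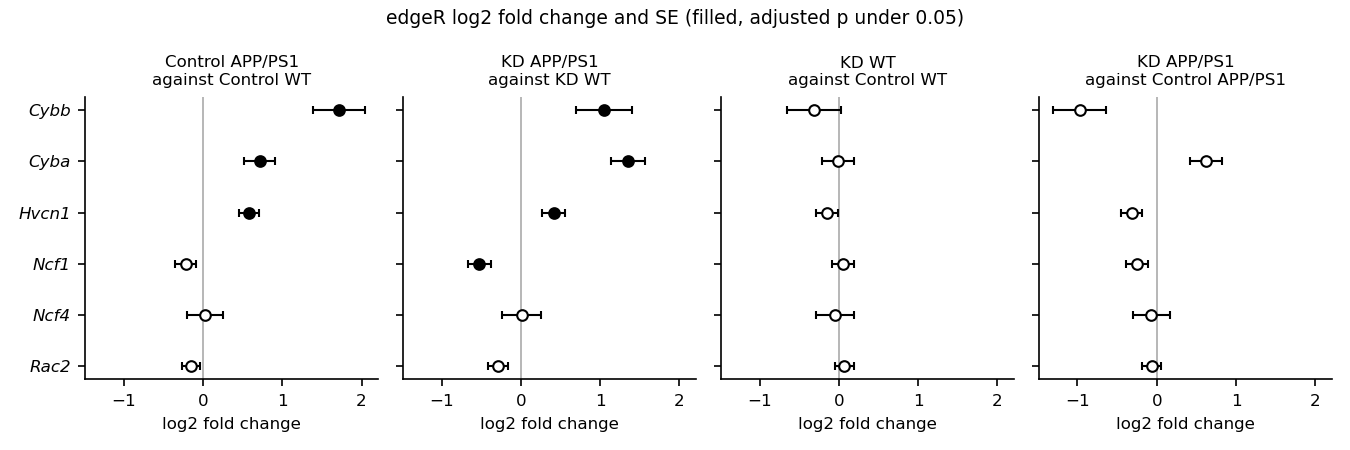
Log2 fold change (horizontal axis) of each oxidase gene in 4 comparisons (KD, *Slc11a2*-KD), from edgeR over 22 samples; bars give the SE and filled points have an adjusted p under 0.05. *Cybb* at 1.71 and 1.05, *Cyba* at 0.72 and 1.35 and *Hvcn1* at 0.58 and 0.41 are filled in both comparisons of *APP/PS1* with WT, and no point is filled in the comparisons with Control of the same genotype.

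Among mice labelled *Slc11a2*-KD, the same 3 genes were higher in *APP/PS1* than in WT and *Ncf1* was lower. Of the 6 genes, 3 were higher, where 9.77% of all genes tested were higher, and 1 was lower, where 6.41% were lower. Their median log2 fold change was 0.21, against -0.07 over all genes. The order of the membrane chains turned, with *Cyba* now the gene that differed most.

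*Cyba* was at 571, 487, 469, 796 and 984 CPM in *Slc11a2*-KD WT 0001, 0002, 0003, 0019 and 0022. In *Slc11a2*-KD *APP/PS1* 0004, 0018, 0020, 0021 and 0023 it was at 923, 1372, 2022, 2318 and 1787 CPM. The groups overlapped through 0022 and 0004 alone, and in both groups libraries 18 to 23 were higher than libraries 1 to 4. The log2 fold change was 1.35 (SE 0.21, adjusted p = 0.000139). Within libraries 18 to 23, 4 *APP/PS1* against 2 WT samples, it was 1.07 with an adjusted p of 0.0529.

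*Cybb* was at 18.1, 21.5, 46.8, 53.6 and 20.1 CPM in *Slc11a2*-KD WT 0001, 0002, 0003, 0019 and 0022. It was at 51.9, 87.9, 88.2, 51.4 and 52.9 CPM in *Slc11a2*-KD *APP/PS1* 0004, 0018, 0020, 0021 and 0023. The WT sample 0019 reached the level of 3 *APP/PS1* samples, and neither high nor low values followed the library numbers. Its log2 fold change was 1.05 (SE 0.35), with an adjusted p of 0.0434 near the threshold. The call was lost when any 1 of 0001, 0002, 0018, 0020, 0021, 0022 and 0023 was left out, with log2 fold changes between 0.90 and 1.12 and adjusted p-values up to 0.114, and within libraries 18 to 23 the log2 fold change was 0.93 with an adjusted p of 0.334.

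*Hvcn1* was at 177, 176, 202, 188 and 135 CPM in *Slc11a2*-KD WT 0001, 0002, 0003, 0019 and 0022. In *Slc11a2*-KD *APP/PS1* 0004, 0018, 0020, 0021 and 0023 it was at 286, 267, 229, 172 and 217 CPM. Only 0021 lay within the range of the WT samples. The log2 fold change was 0.41 (SE 0.14, adjusted p = 0.0478). This call too was lost when any 1 of 0001, 0002, 0004, 0018, 0019, 0020, 0022 and 0023 was left out, with adjusted p-values from 0.0504 to 0.104, and within libraries 18 to 23 the log2 fold change was 0.45 with an adjusted p of 0.417.

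*Ncf1* was at 468, 544, 539, 336 and 357 CPM in *Slc11a2*-KD WT 0001, 0002, 0003, 0019 and 0022. It was at 425, 311, 245, 269 and 308 CPM in *Slc11a2*-KD *APP/PS1* 0004, 0018, 0020, 0021 and 0023. In both groups the samples of libraries 18 to 23 were the lower ones, the opposite of *Cyba*. *Ncf1* fell by 0.53 on the log2 scale (SE 0.15, adjusted p = 0.0152). The call was lost without 0002 (adjusted p = 0.0578), without 0003 (adjusted p = 0.0540) and without 0020 (adjusted p = 0.0532), and within libraries 18 to 23 the log2 fold change was -0.30 with an adjusted p of 0.521.

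The small GTPase gene *Rac2* had a mean of 128 ± 19.5 CPM (SD, n = 5) in the *APP/PS1* and 156 ± 20.8 (SD, n = 5) in the WT group, and a log2 fold change of -0.29 that missed the threshold (adjusted p = 0.112). *Ncf4*, which encodes the subunit that binds a phosphoinositide of the phagosome membrane, was at 72.2 ± 24.0 and 71.7 ± 18.8 CPM (SD, n = 5 each). Its groups overlapped over nearly their whole ranges, from 53.7 to 112 CPM and from 50.7 to 91.6 CPM.

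In WT mice, samples labelled *Slc11a2*-KD were set against Control. By edgeR, 0 of the 6 genes passed the threshold, where 0% of all genes tested did, and 0 of the 6 had an unadjusted p under 0.05, where 5.92% of all genes did. DESeq2 also called 0 of them, where it called 10 of all 18759 genes. The log2 fold changes lay between -0.31 (SE 0.34) for *Cybb* and 0.07 (SE 0.12) for *Rac2*. That of *Cybb* was -0.59 without 0019 and -0.16 without 0001, the ends of its range when each sample was left out, and -0.51 by voom. *Cyba* was at 661 ± 222 CPM (SD, n = 5) with the knockdown label and 666 ± 117 (SD, n = 6) without. In *Slc11a2*-KD WT the 3 samples of libraries 1 to 3 had a mean of 509 CPM and the 2 samples of libraries 19 and 22 a mean of 890 CPM, on either side of the Control WT mean. With only libraries 1 to 17 and without Control WT 0012 and 0015, the log2 fold change of *Cyba* was -0.43 (SE 0.15, adjusted p = 0.376) and that of *Ncf1* 0.24 (SE 0.11, adjusted p = 0.403).

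In *APP/PS1* mice, where the study looked for an effect of the knockdown on hippocampal microglia, the membrane chains differed in opposite directions between samples labelled *Slc11a2*-KD and Control, without passing the edgeR threshold. *Cybb* had a mean of 66.4 ± 19.7 CPM (SD, n = 5) with the knockdown label and 130 ± 56.8 (SD, n = 6) without, and a log2 fold change of -0.97 (SE 0.34, adjusted p = 0.205). The mean of *Cyba* was 1684 ± 549 CPM (SD, n = 5) against 1093 ± 109 (SD, n = 6), with a log2 fold change of 0.62 (SE 0.20, adjusted p = 0.205). For *Hvcn1* the log2 fold change was -0.32 (SE 0.14, adjusted p = 0.213), for *Ncf1* -0.25 (SE 0.14, adjusted p = 0.295), and for *Ncf4* and *Rac2* -0.07 each. By edgeR, 0 of the 6 genes passed the threshold, where 0% of all genes tested did, while 3 of the 6 had an unadjusted p under 0.05, where 20.6% of all genes did.

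This comparison depended on the test and on 1 library. DESeq2 called 2 of the 6 genes, *Cybb* at -0.93 and *Cyba* at 0.68, each with an adjusted p of 0.0495, where it called 3.09% of all genes. Without *Slc11a2*-KD *APP/PS1* 0004, the only sample of its group among libraries 1 to 4, edgeR called *Cyba* at 0.78 (adjusted p = 0.0202) and *Ncf1* at -0.39 (adjusted p = 0.0436), where it called 16.4% of all 18700 genes tested. *Cybb* then had a log2 fold change of -0.90 (adjusted p = 0.0947) and *Hvcn1* one of -0.40 (adjusted p = 0.0520). DESeq2 without 0004, an alternative added after the data were seen, called 4 of the 6, *Cyba* at 0.84, *Cybb* at -0.85, *Hvcn1* at -0.35 and *Ncf1* at -0.34, where it called 23.7% of all genes. The share of all genes called rose with these settings as well. With 0010 kept, *Cyba* was at 0.40 and *Cybb* at -0.90 by edgeR, each with an adjusted p of 0.595. By limma voom with sample weights *Cybb* was at -0.65 (SE 0.29, adjusted p = 0.160), the smallest size among the settings tried, and *Cyba* at 0.57 (SE 0.15, adjusted p = 0.0561).

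Library number moved with *Cyba* and *Ncf1* across this comparison, since libraries 18 to 23 held 4 of the 5 *APP/PS1* samples with the knockdown label and none of the Controls. With a term for libraries 18 to 23, estimated from the *Slc11a2*-KD samples alone, the log2 fold change turned to -0.14 for *Cyba* and to 0.19 for *Ncf1*. It went from -0.97 to -1.29 (SE 0.47) for *Cybb* and from -0.32 to -0.11 for *Hvcn1*, with an adjusted p of 1 for each of the 4. *Slc11a2*-KD *APP/PS1* 0004 itself had 923 CPM of *Cyba* and 425 CPM of *Ncf1*, both within the Control *APP/PS1* ranges of 900 to 1193 and 337 to 426 CPM. For *Cybb* it had 51.9 CPM, below all 6 Control *APP/PS1* samples. Of the rest of its group, 0021 and 0023, at 51.4 and 52.9 CPM, also lay below all of these. However, 0018 and 0020, at 87.9 and 88.2 CPM, lay above Control *APP/PS1* 0013, 0016 and 0017, at 81.5, 80.8 and 79.9 CPM.

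**Figure D3:**
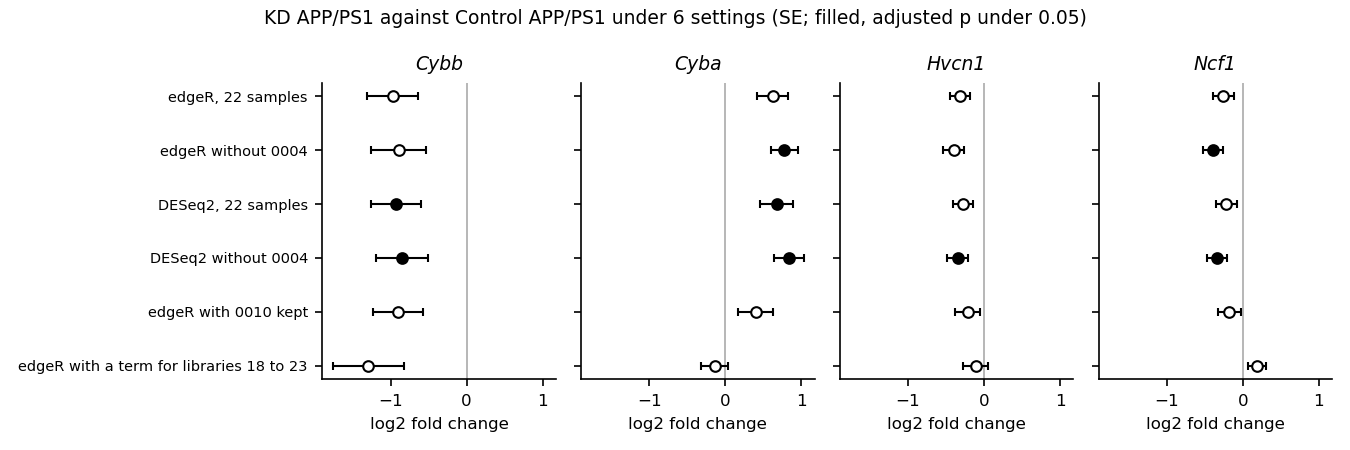
Log2 fold change (horizontal axis) of *Cybb*, *Cyba*, *Hvcn1* and *Ncf1* of *Slc11a2*-KD *APP/PS1* (KD *APP/PS1*) over Control *APP/PS1* under 6 settings (rows); bars give the SE and filled points have an adjusted p under 0.05. *Cybb* is below 0 in the 6 settings drawn, from -1.29 to -0.85 (voom, not drawn, gave -0.65), whereas *Cyba* and *Ncf1* change sign with the term for libraries 18 to 23.

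Samples of *Slc11a2*-KD *APP/PS1* were also set against Control WT, the groups that differ in both factors. *Cyba* rose by 1.34 on the log2 scale (SE 0.20, adjusted p = 7.25e-05) and the groups did not overlap. *Ncf1* fell by 0.47 (SE 0.14, adjusted p = 0.0198), a call lost without 0020 (adjusted p = 0.0593) or without 0021 (adjusted p = 0.0527). *Cybb* had a log2 fold change of 0.74 (SE 0.33, adjusted p = 0.120) and *Hvcn1* one of 0.27 (adjusted p = 0.169). Thus 1 of the 6 genes was higher, where 12.1% of all genes were, and 1 was lower, where 7.47% were. With the term for libraries 18 to 23, 0 of the 6 passed, where 658 of all 18759 genes did. *Cyba* was then at 0.58 (adjusted p = 0.0753) and *Ncf1* at -0.03.

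Whether the *APP/PS1* difference itself depended on the knockdown label was tested as an interaction. By edgeR, 0 of the 6 genes passed, where 0% of all genes did. *Cyba*, at 0.63 (SE 0.29, adjusted p = 0.544), was the only 1 of the 6 with an unadjusted p under 0.05, where 9.08% of all genes were. DESeq2 called 0 of the 6, where it called 25 of all 18759 genes. With a term for libraries 18 to 23 the *Cyba* interaction was 0.28 and with 0010 kept 0.41. For *Cybb* the interaction was -0.66 (SE 0.47, adjusted p = 0.583). It was -0.14 by voom, -0.39 without *Slc11a2*-KD WT 0019 and between -0.81 and -0.49 when each other sample was left out. The larger *APP/PS1* difference of *Cyba* and the smaller one of *Cybb* in *Slc11a2*-KD mice than in Control mice were therefore not shown to differ between the treatments.

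Because the heterodimer needs both chains, the counts of *Cybb* were also set against those of *Cyba* within each sample, a measure that does not depend on the scaling between samples. The log2 ratio of *Cybb* to *Cyba* counts was -3.18 ± 0.74 (SD, n = 6) in Control *APP/PS1*, -4.15 ± 0.53 (SD, n = 6) in Control WT, then -4.46 ± 0.90 (SD, n = 5) in *Slc11a2*-KD WT and -4.64 ± 0.64 (SD, n = 5) in *Slc11a2*-KD *APP/PS1*. For each count of *Cybb* there were 4.65, 7.37 and 5.72 counts of *Cyba* in Control *APP/PS1* 0005, 0007 and 0011 and 14.6, 14.7 and 13.1 in 0013, 0016 and 0017. In *Slc11a2*-KD *APP/PS1* 0004, 0018, 0020, 0021 and 0023 there were 17.8, 15.6, 22.9, 45.1 and 33.8. All samples of this group thus had less *Cybb* per *Cyba* than all 6 Control *APP/PS1* samples, the closest being 0018 and 0016.

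In *APP/PS1* mice, the log2 ratio in samples labelled *Slc11a2*-KD differed from that in Control by -1.46 by a two-sided exact permutation test (p = 0.00433, the smallest this design allows, adjusted over 4 comparisons to 0.0173). It lay between -1.63 and -1.25 when each sample was left out in turn, where the smallest p is fixed because the groups do not overlap, and was -1.23 with an adjusted p of 0.121 when 0010 was kept. Between Control *APP/PS1* and Control WT the difference was 0.98 (exact permutation p = 0.0303, adjusted p = 0.0606). It was 1.10 without Control WT 0012, where the adjusted p was 0.0346, adjusted p-values ranged up to 0.121 when each other sample was left out, and with 0010 kept it was 0.74 with an adjusted p of 0.224. It was -0.18 (exact permutation p = 0.706) between the *Slc11a2*-KD groups and -0.31 (exact permutation p = 0.485) between the WT groups. The part of library number in the ratio was not tested: 3 of the 5 highest *Cyba* counts for each *Cybb* count among the 22 samples were in libraries 18 to 23, while 0018 and 0019, at 15.6 and 14.8, lay below 0004 and 0001, at 17.8 and 31.5.

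**Figure D4:**
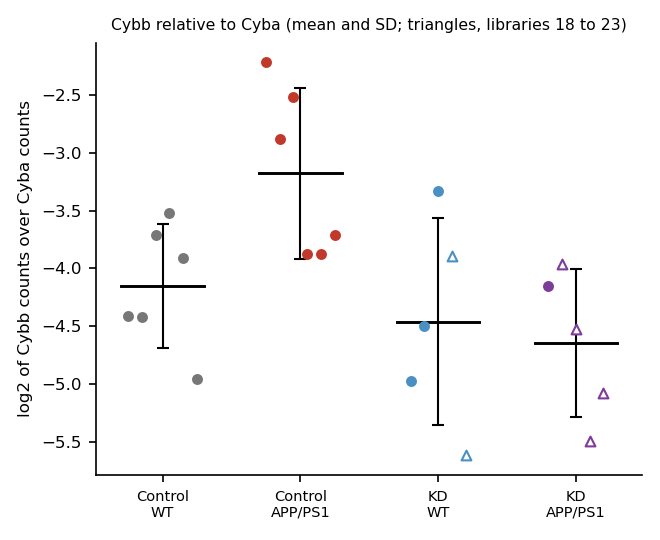
Log2 of the count of *Cybb* over the count of *Cyba* (vertical axis) in each of the 22 samples by group (KD, *Slc11a2*-KD); points are samples, triangles are libraries 18 to 23, and bars give the mean and SD. The 6 Control *APP/PS1* samples, with a mean of -3.18, all lie above the 5 *Slc11a2*-KD *APP/PS1* samples, with a mean of -4.64.

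Within groups, the 6 genes did not vary as 1 unit. Over the 22 samples, taken as deviations of log2 CPM from the group means, *Cyba* and *Ncf1* went against each other, with a Pearson r of -0.88 and a Spearman rho of -0.87, and r was -0.82 without the 2 samples farthest out. *Cybb* and *Cyba*, the chains of 1 heterodimer, had an r of 0.04. *Ncf4* and *Rac2* had an r of 0.58, *Cybb* and *Hvcn1* 0.48, *Ncf1* and *Hvcn1* 0.46 and *Cyba* and *Hvcn1* -0.52. These are descriptions, and the points include libraries 18 to 23, which lay apart from libraries 1 to 4 within both *Slc11a2*-KD groups for *Cyba* and *Ncf1*. Among the 22 samples without the *Slc11a2*-KD samples of libraries 18 to 23, the highest *Cyba* level was 1193 CPM and the lowest *Ncf1* level 337 CPM. Control *APP/PS1* 0010, outside the 22, had 2368 CPM of *Cyba* and 230 CPM of *Ncf1* after scaling over all 23 samples.

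**Figure D5:**
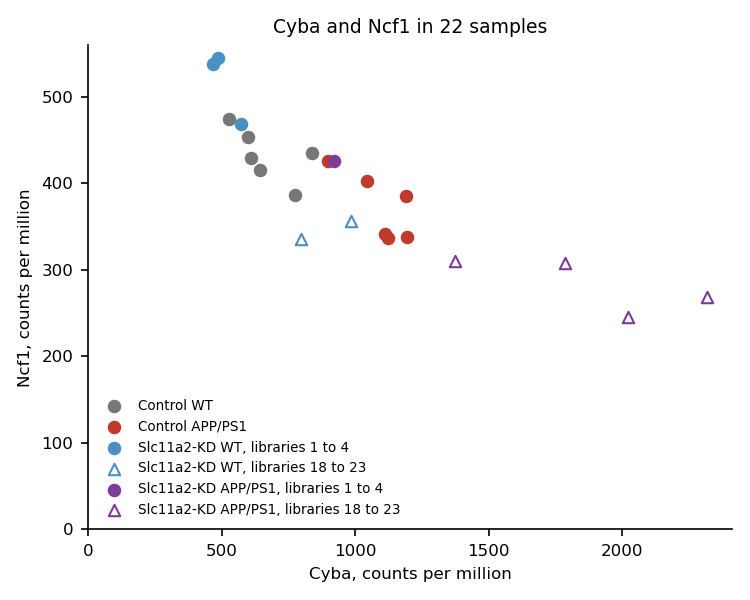
*Ncf1* (vertical axis) against *Cyba* (horizontal axis), both in CPM and both axes from 0, in the 22 samples; colours are groups and open triangles are libraries 18 to 23. The 4 *Slc11a2*-KD *APP/PS1* samples of libraries 18 to 23, with *Cyba* between 1372 and 2318 CPM, lie at the far right, and *Slc11a2*-KD *APP/PS1* library 4, with 923 CPM, lies among the Control *APP/PS1* samples.

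Likeness was described by the same within-group correlation against 7896 genes with a mean of at least 10 CPM. The genes most like *Cyba* were *Ssr4*, *Cstb* and *Sec11c*, each with an r of 0.97. Those most like *Ncf1* were *Tagap* (r = 0.91), *Ddx18* (r = 0.88) and *Egr1* (r = 0.87), and those most like *Hvcn1* were *Sphk2* (r = 0.94), *Pld3* and *Prkcsh* (r = 0.90 each). *Rac2* was most like *Siglece* (r = 0.87), *H2-DMa* and *Ccni* (r = 0.78 each), and *Ncf4* most like *Rpl3-ps1* (r = 0.83), *Pdia6* (r = 0.81) and *Babam1* (r = 0.79). Over all 22 samples *Cybb* had the weakest matches of the 6, *Antxr2* (r = 0.77), *Xdh* (r = 0.76) and *Cd44* (r = 0.75). It did not keep this place without the 2 samples farthest out. There its r was 0.89, 0.77 and 0.74 with these genes, and that of *Ncf4* with its own matches 0.83, 0.71 and 0.75. No oxidase gene of the 6 was among the 3 nearest genes of another.

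Of the 19 partners and activators of the oxidase reported here, all tested, 4 fell from Control WT to Control *APP/PS1* and 0 rose, where 4.48% of all genes tested fell and 5.99% rose. Their median log2 fold change was -0.23, against -0.02 over all genes. *Prkca* and *Prkcd*, kinases of the protein kinase C family that phosphorylate p47phox, fell by 1.25 (SE 0.30, adjusted p = 0.00714) and 0.52 (SE 0.12, adjusted p = 0.00600). *Cybc1*, which encodes a chaperone needed to assemble the membrane heterodimer, fell by 0.37 (SE 0.10, adjusted p = 0.0162), from 230 ± 30.8 to 177 ± 13 CPM (SD, n = 6 each), opposite to both chains it serves, and *Mapk14*, which encodes a p38 kinase, fell by 0.32 (adjusted p = 0.0240).

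Between the *Slc11a2*-KD groups, 0 partners were higher in *APP/PS1*, where 9.77% of all genes were, and 6 were lower, where 6.41% were. The median was -0.44, against -0.07 over all genes. The kinase genes *Prkca*, at -1.52 (adjusted p = 0.00293), *Prkcd*, at -0.72 (adjusted p = 0.000668), and *Mapk14*, at -0.41 (adjusted p = 0.00654), fell here too. The others were *Syk*, a kinase downstream of phagocytic receptors, at -1.07 (adjusted p = 0.0127), *Pak1*, a kinase activated by Rac, at -0.67 (adjusted p = 0.00199), and *Pla2g4a*, the cytosolic phospholipase A2, at -0.47 (adjusted p = 0.00517). In the comparisons of *Slc11a2*-KD with Control in WT and in *APP/PS1*, 0 of the 19 passed by edgeR, as did 0% of all genes. At an unadjusted p under 0.05 there were 0 of the 19 in WT, where 5.92% of all genes were, and 10 in *APP/PS1*, where 20.6% were.

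Of the other NADPH oxidases and their partners, 2 of 9 genes were in the table, *Noxo1* and *Duoxa1*. The latter, a maturation factor of a dual oxidase, fell from 10.2 ± 3.55 to 3.34 ± 1.80 CPM (SD, n = 6 each) between the Control groups, by 1.62 (SE 0.33, adjusted p = 0.00152), so that 1 of 2 was lower, where 4.48% of all genes were. *Noxo1*, which encodes an organizer of NOX1, had a log2 fold change of 0.60 (SE 0.61, adjusted p = 0.637). Between the *Slc11a2*-KD groups neither passed, with *Duoxa1* at -1.01 (adjusted p = 0.0517) and *Noxo1* at -0.33 (adjusted p = 0.797). A list of 7 genes was taken for the supply of NADPH, the electron donor of the oxidase, and not all of their enzymes, *Tkt* among them, make NADPH themselves. Of the 7, 2 rose in Control *APP/PS1*, where 5.99% of all genes rose, and 5 were not called. These were *Tkt*, by 0.65 (SE 0.11, adjusted p = 0.000376), and *Pgd*, by 0.52 (SE 0.09, adjusted p = 0.000214), both enzymes of the pentose phosphate pathway. Between the *Slc11a2*-KD groups 3 rose, where 9.77% of all genes did, *Pgls* by 0.92 (SE 0.19, adjusted p = 0.00228), *Tkt* by 0.50 (adjusted p = 0.00801) and *Pgd* by 0.47 (adjusted p = 0.00155).

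Of 10 transcription factors known to bind promoters of oxidase subunits, *Irf8* alone rose in Control *APP/PS1*, from 552 ± 44.4 to 708 ± 69.9 CPM (SD, n = 6 each), by 0.36 (SE 0.08, adjusted p = 0.00650). This 1 of 10 stands against 5.99% of all genes higher there, and 0 of the 10 fell. *Irf8* rose by 0.36 (SE 0.09, adjusted p = 0.0101) between the *Slc11a2*-KD groups too, where *Irf2* at -0.82 (adjusted p = 0.0199), *Elf1* at -0.81 (adjusted p = 0.0234) and *Nfkb1* at -0.66 (adjusted p = 0.0155) fell. That is 1 of 10 higher and 3 lower, against 9.77% and 6.41% of all genes. *Spi1*, which encodes PU.1, had log2 fold changes of -0.15 (adjusted p = 0.240) and -0.10 (adjusted p = 0.455) in these comparisons.

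Neutrophils, monocytes and border macrophages also carry the oxidase and CD11b, so their markers were summed in each sample. The counts of markers below stand against 4.48% of all genes lower and 5.99% higher between the Control groups, and 6.41% and 9.77% between the knockdown groups. The 9 neutrophil markers summed to between 89.3 and 331 CPM in Control WT and between 20.2 and 96.0 CPM in Control *APP/PS1*, and 5 of the 9 were lower there and 0 higher. The 5 monocyte markers summed to between 22.4 and 84.2 CPM and between 9.55 and 30.2 CPM, with 2 lower, and the 7 border macrophage markers to between 221 and 428 CPM and between 91.8 and 197 CPM, with 5 lower. These lists were thus lower in the group where *Cybb*, *Cyba* and *Hvcn1* were higher. In the knockdown WT and *APP/PS1* groups the neutrophil sums ranged from 99.7 to 523 and from 42.1 to 144 CPM, the monocyte sums from 22.0 to 78.9 and from 14.5 to 68.1 CPM, and the border macrophage sums from 258 to 511 and from 131 to 194 CPM, with 2, 0 and 3 markers lower in *APP/PS1* and 0 higher. *Ly6g* was at 0 in 7 samples, and *Mpo* and *Elane* in 16 each. The 7 microglia markers in the table summed to between 42268 and 48469 CPM in Control WT and between 32454 and 37088 CPM in Control *APP/PS1*, with 3 of the 7 lower. With the knockdown they summed to between 42058 and 49562 CPM in WT and between 36094 and 39815 CPM in *APP/PS1*, with 5 of the 7 lower. The part of these markers in the results for the oxidase genes was not tested.

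Markers of cells without CD11b differed between libraries as well. The 9 choroid plexus markers summed to between 1.30 and 5.41 CPM in Control *APP/PS1*. In Control WT they summed to 1953 and 1006 CPM in 0012 and 0015 and to between 1.09 and 5.34 CPM in the other 4 samples. In the knockdown groups they summed to between 87.7 and 786 CPM in libraries 18 to 23 and between 2.30 and 51.1 CPM in libraries 1 to 4, the split along which *Cyba* and *Ncf1* also lay apart. In Control WT, 0012 and 0015 had means of 626 CPM of *Cyba* and 422 CPM of *Ncf1*, against 686 and 437 CPM in the other 4 samples. Of the 9 choroid plexus markers, 7 were lower in *APP/PS1* between the Control groups and 0 between the knockdown groups. In *APP/PS1* mice with the knockdown label against Control, 0 passed by edgeR, 8 had an unadjusted p under 0.05, where 20.6% of all genes did, and the median log2 fold change was 7.43.

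The 5 oligodendrocyte markers summed to between 673 and 2739 CPM in Control WT and between 308 and 905 CPM in Control *APP/PS1*, with 4 of 5 lower, and to between 940 and 3554 CPM and between 490 and 1205 CPM in the knockdown WT and *APP/PS1* groups, with 2 lower. For 4 endothelial markers these sums were 151 to 317 and 98.9 to 130 CPM, with 1 higher and 3 lower, and 119 to 260 and 78.5 to 156 CPM, with 1 lower. For 5 astrocyte markers they were 6.34 to 24.1 and 38.3 to 105 CPM, and 10.5 to 24.9 and 42.5 to 131 CPM, with 1 higher in each pair. For 5 neuron markers they were 2.49 to 7.62 and 1.09 to 4.00 CPM, with 2 lower, and 3.41 to 8.23 and 1.67 to 3.76 CPM, with 0 called. The lymphocyte markers, of which 6 of 7 were in the table, summed to 1.60 to 13.5 and 0.362 to 2.79 CPM, with 1 lower, and to 1.98 to 12.8 and 0.552 to 9.35 CPM, with 0 called. Their part in the results was not tested either.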

How the data were processed

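The authors trimmed paired-end reads with Trim Galore 0.6.7, aligned them to the mouse genome (GRCm39) with STAR and counted reads per gene. The deposited table holds raw counts for 18876 genes in 23 samples. A second deposited table, of counts divided by DESeq2 1.36.0 size factors (a normalized signal), was not used for any test. The strand setting of the counting is not given in the sources used here. Samples were grouped by the labels, which write the knockdown genotype as KO and do not name the animal, so p-values measure the spread between these samples. Control *APP/PS1* 0010 was left out because the study removed 1 sample of that group and 0010 alone is missing from its heat map.

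Counts were fitted with edgeR 4.0.16 in R 4.3.3 (TMM scaling, quasi-likelihood F-test, all 4 groups in 1 fit over 22 samples, at least 5 counts in at least 3 samples). The Benjamini-Hochberg adjustment ran over the 18759 genes tested, with a threshold of 0.05, and an SE is the size of the log2 fold change divided by the square root of F. DESeq2 1.42.0 and limma 3.58.1 (voom with sample weights), other scalings and filters, other sets of samples, a term for libraries 18 to 23 and leaving out each sample were the alternatives. CPM were computed from the edgeR scaling, and divided by the length of the exon union of GENCODE M39 for CPM per kb, which overstates the transcribed length of genes with many isoforms. The ratio of *Cybb* to *Cyba* counts was tested by exact permutation with scipy 1.17.1. Within-group correlations used log2 CPM with a prior count of 2. The scripts were tested on simulated data. Named genes are the 6 oxidase genes, up to 4 called members of each list with the largest log2 fold change between the Control groups (up to 2 by mean level where none was called), and the 3 genes most like each oxidase gene. *Spi1*, *Noxo1* and list genes called between the *Slc11a2*-KD groups alone were named after their values were seen. A member of the list of oxidase partners is not reported here, and the counts and median of that list leave it out. The members and lists were chosen with earlier results of these data known. Promoter windows come from RefSeq (GRCm38.p6), and positions from GENCODE M39 (GRCm39).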

Additional observations from a re-analysis of the deposited data

Results flagged for a closer look

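*Cyba* was at 2368 CPM in Control *APP/PS1* 0010, the sample that the comparisons do not use, whereas the highest of the other 12 Control samples had 1182 CPM, both after scaling over all 23 samples. In that sample *Ncf1* was at 230 CPM and *Hvcn1* at 150 CPM, each below all 12 other Control samples, and *Cybb*, *Ncf4* and *Rac2* were at 83.7, 84.9 and 108 CPM. Among 24 groups of values tested for a sample that stands apart, 6 genes in 4 groups, 0 held one, where chance gives about 1 in 20.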

How the results depend on the processing

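No paired analysis was possible because each library number belongs to 1 sample and no number is shared between groups. The rise of *Cybb* and of *Hvcn1* in Control *APP/PS1* over Control WT held under all 21 alternatives and that of *Cyba* under 20 of 21. Between the *Slc11a2*-KD groups the *Cyba* call held under 19 of 20, while *Cybb* lost its call under 11, *Hvcn1* under 12 and *Ncf1* under 6 of 20. Counting depth limited none of the 6 genes. The cause of the changes below was not tested, except where fewer samples or a fold limit make them.

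Counts of genes past the threshold were as follows. Between Control *APP/PS1* and Control WT, edgeR called 1965 genes, voom 3421, edgeR on only these groups 3241, without Control WT 0012 and 0015 1282, and with a log2 fold change over 1 only 918 (1 of the 6 oxidase genes); leaving out each sample gave 1561 to 1969 genes and 3 of the 6 each time. Between the *Slc11a2*-KD groups it called 3034, on only these groups 1041 (1 of the 6), with a term for libraries 18 to 23 1773 (2 of the 6), on only libraries 18 to 23 327 (0 of the 6), with a log2 fold change over 1 1105 (2 of the 6), and with 0010 kept 2 of the 6; leaving out each sample gave 1977 to 4781 genes (1977 without 0002, 2022 without 0003, 1996 without 0021, 4781 without 0004) and 1 to 3 of the 6. Between the WT groups the count of 0 became 10 by DESeq2, 1 by voom, 2 with libraries 1 to 17 without 0012 and 0015, and 0 to 1 when leaving out each sample. Between the *APP/PS1* groups it became 580 by DESeq2 (2 of the 6), 2 by voom, 4432 by DESeq2 without 0004 (4 of the 6, chosen after the data were seen), and 0 to 3069 when leaving out each sample (0 to 2 of the 6, the highest without 0004). For the interaction it became 25 by DESeq2, 1 by voom and 0 to 1 when leaving out each sample. Between *Slc11a2*-KD *APP/PS1* and Control WT it was 3678, 658 with the term for libraries 18 to 23 (0 of the 6), 1321 with a log2 fold change over 1 (1 of the 6), and 2344 to 5334 when leaving out each sample (2344 without 0021; 1 to 2 of the 6).

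The log2 ratio of *Cybb* to *Cyba* differed between the *APP/PS1* groups by -1.23 with 0010 kept (exact permutation adjusted p = 0.121) and by -1.63 to -1.25 when leaving out each sample, between the Control groups by 0.78 to 1.12, between the *Slc11a2*-KD groups by -0.47 to 0.10, and between the WT groups by -0.59 to -0.019.

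The values that changed sign were these. *Ncf4* in Control *APP/PS1* against Control WT was -0.010 by DESeq2, -0.010 with its size factors, -0.018 with at least 10 counts in every sample, and -0.14 to 0.15 when leaving out each sample. Between the *Slc11a2*-KD groups *Ncf4* was -0.14 by voom, -0.042 with the term for libraries 18 to 23 and -0.20 to 0.11; between the WT groups 0.099 without 0012 and 0015, 0.10 on libraries 1 to 17 and -0.17 to 0.034; between the *APP/PS1* groups 0.050 by DESeq2 without 0004 and -0.29 to 0.097; for the interaction 0.039 by DESeq2, 0.039 with its size factors, 0.037 with at least 10 counts in every sample and -0.22 to 0.15; and in *Slc11a2*-KD *APP/PS1* against Control WT 0.11 without 0012 and 0015 and -0.26 to 0.033. *Rac2* between the WT groups was -0.0093 on libraries 1 to 17 and -0.030 to 0.10 when leaving out each sample, *Cyba* there -0.21 to 0.092 and *Ncf1* -0.025 to 0.13. Between the *APP/PS1* groups the term for libraries 18 to 23 gave -0.14 for *Cyba* and 0.19 for *Ncf1*.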
